A study of Mus musculus with 6 samples.

Results

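The ventral prostate (VP) of a mouse carrying a MYC transgene was compared with the VP of a wild-type (WT) littermate, across genes, in bulk RNA-seq. The comparison uses 2 of the 6 libraries of the series, MYC VP and WT VP, and covers the 12361 of 24908 listed genes that averaged 1 FPKM or more (fragments per kilobase and per M mapped reads) over the 6 libraries. A gene was called higher or lower where the log2 ratio of MYC to WT, computed on FPKM + 1, was at least 1 in size, that is 2-fold. It was placed in the VP-only class where the log2 ratio in that direction was under 0.5 in both of the other lobes, the dorsolateral prostate (DLP) and the anterior prostate (AP).

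Both animals were 12-week-old FVB males on a purified diet. The MYC animal was heterozygous for the Hi-MYC transgene, in which the ARR2Pb promoter, a composite made from the probasin promoter, drives human c-MYC in prostatic epithelium, and the WT littermate lacked it. Each lobe was dissociated to single cells with enzymes, and RNA of the suspension gave 1 poly(A), stranded library per lobe and animal. With 1 mouse per genotype, genotype and animal cannot be told apart, no test was possible, and differences between lobes were not tested.

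MYC is a transcription factor that binds DNA as a dimer with MAX, best at the E-box CACGTG, and is known for raising genes of ribosome production, translation, nucleotide synthesis and cell division. The ventral lobe is a gland whose luminal cells, under androgen, secrete protease inhibitors, defensins and carrier proteins into the seminal fluid. Its secretory cells therefore hold large amounts of a few transcripts and much machinery for folding proteins in the endoplasmic reticulum (ER).

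The transgene target was read at 226 FPKM in WT and 1696 FPKM in MYC VP under the symbol Myc, a log2 ratio of 2.90, against 1.54 in DLP and 0.01 in AP. The table has a single Myc entry (chr15:61985341-61990361, GRCm38), so human and mouse transcripts are not separated. The luminal keratins Krt8 (1292 and 1101 FPKM in WT and MYC VP) and Krt18 (1611 and 1313 FPKM) were abundant in both libraries, as the tissue label implies. Transcripts of the neighbouring seminal vesicle were near absent in VP, with 10 listed genes summing to 0.235 FPKM in WT and 0.0086 FPKM in MYC. They were not absent elsewhere, since the same genes summed to 0.112 and 530.0 FPKM in WT and MYC AP and to 0.256 and 11.8 FPKM in DLP, and their part in the AP and DLP ratios was not tested. Steps in the low FPKM values put the depth at 49.7 M mapped reads for WT VP and 41.1 M for MYC VP, and at 25.6 to 50.1 M for the other 4 libraries.

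Promoter sequences of some of the genes described below, which rose or fell in MYC VP, are shown here. The first 4 were picked because they hold CACGTG, so its presence in all 4 is no result. Sequences are from RefSeq on GRCm38.p6, written 5′ to 3′ along the strand of the gene. Capitals in the first 4 mark the MYC-MAX hexamer CACGTG, which reads the same on both strands. It occurred in 7.24% of the 27025 promoters of the table and in 10.5% of those matched to compared genes. Each promoter was 300 bases long, from 250 before to 50 after the annotated start. Each of the first 4 genes rose in MYC VP and belonged to the VP-only class. Impdh2 came under 2-fold in VP under all 3 other scalings of the libraries, and Eif3f and Eif3k under either scaling to equal sums. The windows of 60 bases are chr10:81176561-81176620 (+) for Eef2, translation elongation factor 2, chr9:108560299-108560358 (+) for Impdh2, a rate-limiting enzyme of guanine nucleotide synthesis, and chr7:108934320-108934379 (+) and chr7:28981900-28981959 (-) for Eif3f and Eif3k, subunits of the initiation factor eIF3.
Eef2: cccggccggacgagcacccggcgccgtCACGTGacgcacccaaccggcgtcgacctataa
Impdh2: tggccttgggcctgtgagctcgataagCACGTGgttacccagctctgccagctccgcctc
Eif3f: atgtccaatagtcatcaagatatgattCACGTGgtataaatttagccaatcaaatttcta
Eif3k: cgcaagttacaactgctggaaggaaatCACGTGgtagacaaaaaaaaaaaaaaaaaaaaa
The motif began 43 bases before the start in Eef2, 110 in Impdh2, 68 in Eif3f and 44 in Eif3k. The 250 bases before the start of mouse Pbsn (probasin, chrX:77853501-77853750, minus strand) are shown because this gene, whose promoter family drives the transgene, had the largest fall in VP. Capitals mark AGAACA, a hexamer found in androgen response elements, which began 95 bases before the start. Searched on both strands, it occurred in 19.0% of the 27025 promoters and in 12.2% of those matched to compared genes. Of the other large falls searched, Oit1, Itln1 and Pcp4 held no match in their 300 bases and Upk1a held 1, after the start.
Pbsn: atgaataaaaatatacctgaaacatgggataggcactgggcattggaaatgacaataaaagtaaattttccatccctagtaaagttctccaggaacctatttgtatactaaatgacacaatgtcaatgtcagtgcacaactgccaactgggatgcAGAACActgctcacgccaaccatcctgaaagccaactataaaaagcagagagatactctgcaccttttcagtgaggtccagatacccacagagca

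To ask what MYC was associated with in this lobe, all genes were compared between both VP libraries. In MYC VP, 850 genes were higher (6.88% of those compared) and 736 were lower (5.95%), against 6.46% and 3.39% in DLP and 2.05% and 0.599% in AP. The median log2 ratio of all genes was 0.04 in VP. A rise or fall of at least 4-fold was seen in 148 and 114 genes, and of at least 8-fold in 45 and 40. Among the 527 genes averaging 100 FPKM or more over both VP libraries, 115 were higher and 62 were lower. The balance between rises and falls moved with the scaling of the libraries. Size factors from medians of ratios gave 710 higher and 919 lower, equal sums of FPKM gave 546 and 1089, and equal sums without the 20 highest genes gave 521 and 1184, with the median of all genes shifted to -0.15 and -0.18 under the latter pair.

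**Figure D1:**
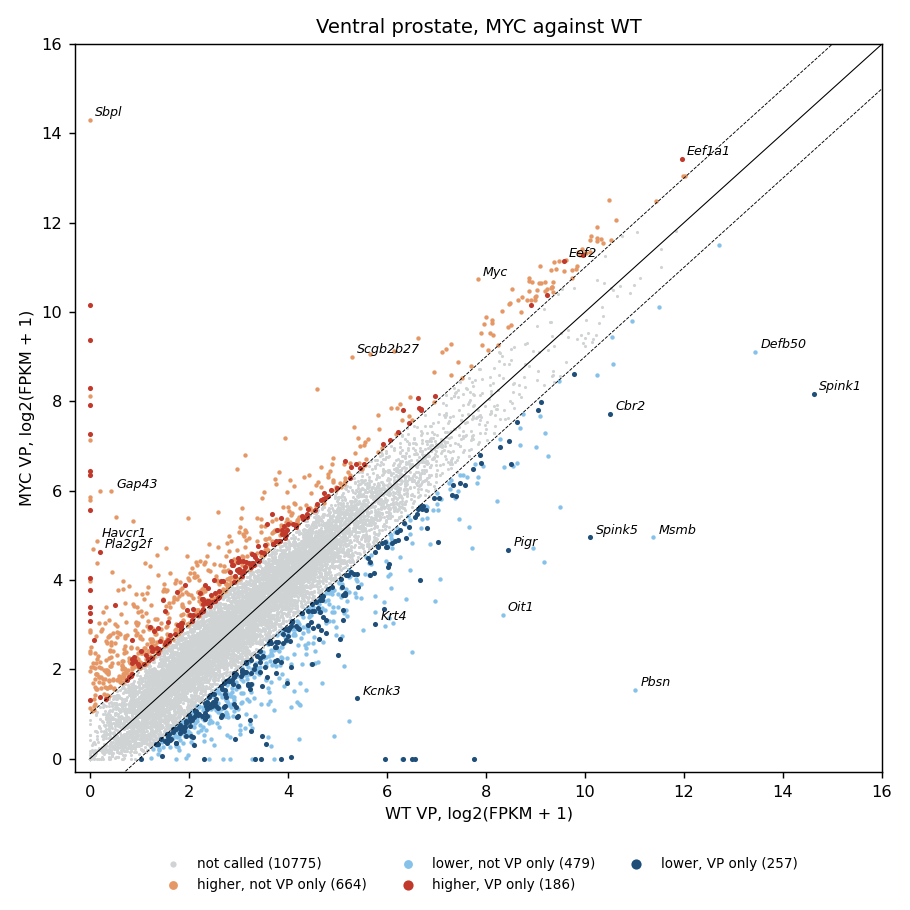
Level of each of the 12361 genes in WT VP (x axis) and MYC VP (y axis), both as log2(FPKM + 1), with 1 library per axis. The solid line marks equal levels and the dashed lines a 2-fold difference. Red and dark blue points are the 186 and 257 genes of the VP-only class. Of the labelled genes Pbsn lies farthest below the line, and the translation factors Eef1a1 and Eef2 lie above the upper dashed line.

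The most abundant transcripts of the lobe differed between the genotypes. The 20 genes of a prostatic secretion list went from 11.7% to 4.99% of all FPKM in VP, and from 11.7% to 0.817% without Sbpl. Of its 17 compared genes 8 were lower and 2 higher in VP, beside 5.95% and 6.88% of all genes. The list went down in DLP too, from 10.6% to 1.85% without Sbpl, with 9 lower and 5 higher (3.39% and 6.46% of all genes). In AP it had 2.04% and 2.21% without Sbpl, with none lower and 12 higher (0.599% and 2.05% of all genes). The 79 cytosolic ribosomal protein genes went from 13.5% to 29.1% in VP. In WT VP the most abundant gene was Spink1, in MYC VP it was Sbpl, a homologue of spermine-binding protein, followed by the elongation factor Eef1a1. Sbpl was listed at 0 in WT VP, 0.981 in WT DLP and 0.234 in WT AP and at 20155 FPKM in MYC VP, 197 in MYC DLP and 6.42 in MYC AP. Its paralogue Sbp was listed at 0 in both VP libraries and at 878 FPKM in MYC DLP, so the split of reads between these copies is uncertain. A value of 0 in this table is not proof of absence, since it can be a failed estimate, and such genes are given only as listed at 0.

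The largest rises with a value above 0 in both VP libraries were in genes that WT VP barely held. Gap43, a growth-associated protein known from growing axons (chr16:42248552-42340651, GRCm38), went from 0.349 to 62.3 FPKM in VP, a ratio of 178 (exact Clopper-Pearson 95% interval 111 to 328, which covers counting error of the estimated reads only). Its levels in the other WT lobes were 1.18 (DLP) and 0.465 (AP) and in the other MYC lobes 3.81 and 1.20, so that MYC VP stood above all the rest. Havcr1, also called Kim-1, a receptor for phosphatidylserine that marks injured kidney tubules (chr11:46739822-46779578), went from 0.0968 to 28.4 FPKM in VP and had at most 2.26 FPKM in the other 4 libraries. The secreted phospholipase A2 gene Pla2g2f (chr4:138750533-138757598) went from 0.144 to 23.9 FPKM in VP, a ratio of 166 (103 to 294). In WT DLP, MYC DLP, WT AP and MYC AP it had 0.180, 0.477, 0.0175 and 0.00893 FPKM. Pla2g2f was thus high in a single library, and of the VP-only genes above 0 in both VP libraries it had the largest rise.

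Other large rises were shared with DLP. The imprinted growth factor gene Igf2 went from 0.831 to 38.9 FPKM in VP, and went from 4.20 to 290 FPKM in DLP and from 2.36 to 4.06 FPKM in AP. Wfdc12, a small secreted protease inhibitor, went from 0.155 to 62.7 FPKM in VP, with still higher levels in MYC DLP (1657 FPKM) and MYC AP (1028 FPKM). The phosphodiesterase Smpdl3b rose from 0.433 to 41.5 FPKM in VP, with log2 ratios of 4.89 in VP, 3.44 in DLP and 1.41 in AP. Scgb2b27, a secretoglobin of a family with close copies among which reads can be divided, went from 38.0 to 509.9 FPKM in VP. It was listed at 0 in WT DLP and both AP libraries and at 22.97 FPKM in MYC DLP.

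Secreted inhibitors were among the largest falls. Spink1, a secreted Kazal-type trypsin inhibitor, went from 25232 to 285 FPKM in VP, 88.4-fold lower. In DLP it went the other way, from 0.197 to 79.5 FPKM, and in AP it was listed at 0 in WT and at 7.04 FPKM in MYC. The multidomain Kazal inhibitor Spink5 had the same signs, going from 1104 to 30.01 FPKM in VP against 0.367 and 12.4 FPKM in WT and MYC DLP. Oit1 (chr14:8348937-8378763, GRCm38) fell from 322 to 8.36 FPKM in VP, 38.5-fold, and from 60.6 to 28.6 FPKM in DLP, while it went from 8.35 to 24.5 FPKM in AP. The potassium channel Kcnk3 (chr5:30588170-30625270) went from 41.1 to 1.55 FPKM in VP and had at most 0.858 FPKM (WT DLP) in the other 4 libraries.

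Further large falls were those of Defb1, an epithelial beta-defensin (572 to 20.1 FPKM), Upk1a, an uroplakin (493 to 25.5 FPKM), Ang3, an angiogenin-family ribonuclease (36.8 to 0.792 FPKM), the lectin Itln1 (29.3 to 0.417 FPKM) and the calmodulin regulator Pcp4 (90.3 to 4.20 FPKM). All 5 were also lower by at least 2-fold in DLP, where Itln1 and Pcp4 had larger falls (log2 ratios of -8.20 and -4.62) than in VP (-4.42 and -4.13). Pbsn fell from 2055 to 1.90 FPKM in VP, a log2 ratio of -9.47, against -5.71 in DLP and -0.22 in AP.

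**Figure D2:**
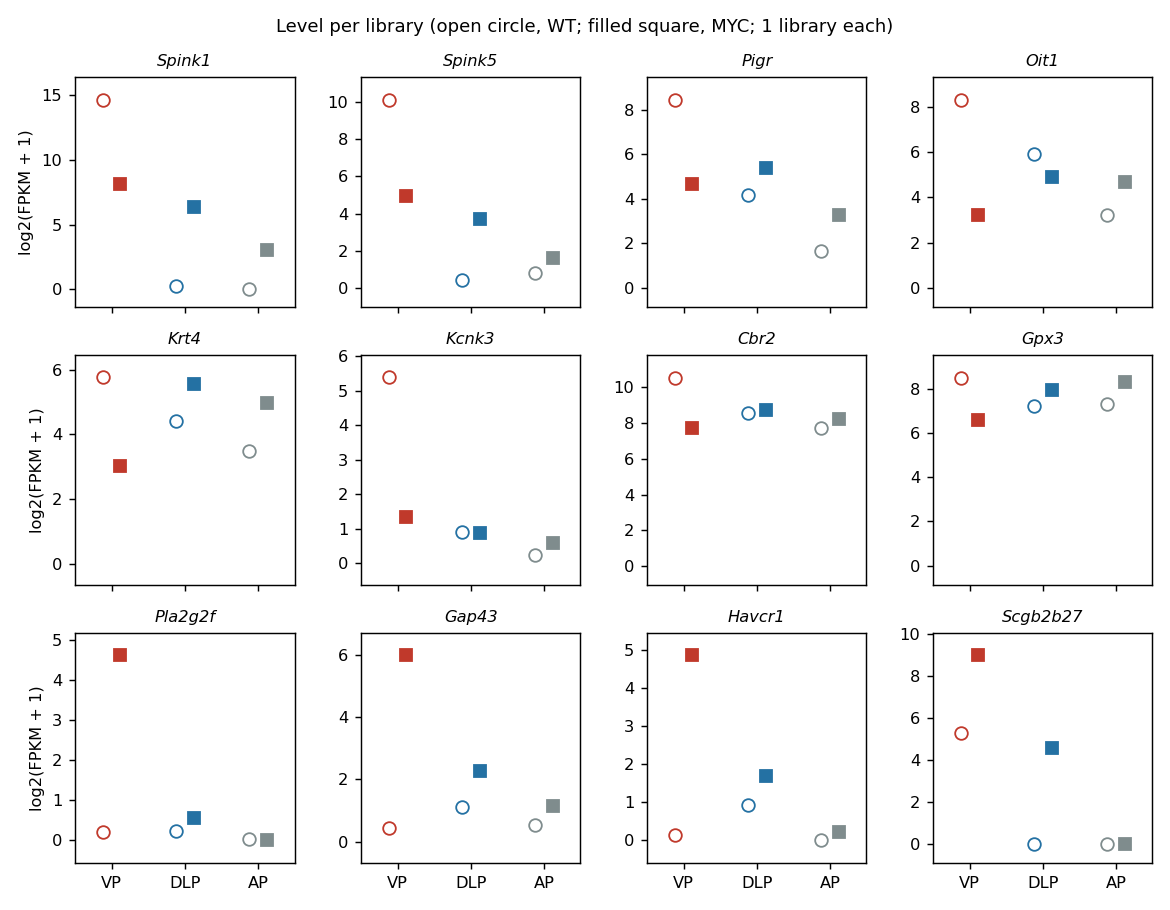
Level of 12 named genes as log2(FPKM + 1) in each of the 6 libraries, by lobe, with an open circle for WT and a filled square for MYC. The upper 8 genes are lower in MYC VP than in WT VP, and of these Oit1 alone is also lower in MYC DLP by 2-fold. The last 4 are high in MYC VP, and Pla2g2f is near 0 in the other 5 libraries.

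To ask which of these changes were absent in the other lobes, the VP rises and falls were divided by their ratios in DLP and AP. Of the 850 rises, 51 were also called in both other lobes, 298 in DLP but not AP, 10 in AP but not DLP, and 305 were intermediate, with a log2 ratio of 0.5 to 1 in DLP or AP. The remaining 186 (21.9% of the rises and 1.5% of all genes) were VP-only. Of the 736 falls, 8 were shared by all lobes, 224 by DLP alone and 12 by AP alone, 235 were intermediate, and 257 (34.9% of the falls and 2.08% of all genes) were VP-only. In 17 of the 186 and 11 of the 257 genes all 4 DLP and AP libraries were under 1 FPKM, where adding 1 FPKM holds a ratio near 0, and it also shrinks the ratios of other low genes. The VP-only rises were modest, with a median log2 ratio of 1.16 in VP, 0.27 in DLP and 0.07 in AP. The VP-only falls had medians of -1.23, -0.13 and 0.26.

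Some VP changes ran opposite to those of the other lobes. Of the 736 genes lower in VP, 45 were at least 2-fold higher in DLP or AP, 39 of them in AP, while 13 of the 850 higher genes were at least 2-fold lower in either. MYC VP held the highest level of all 6 libraries in 168 of the 186 VP-only rises (90.3%, against 26.8% of all genes), and WT VP was the lowest of the 3 WT lobes in 96 of them (51.6%, against 47.1% of all genes). Among the 257 VP-only falls, MYC VP was the lowest library in 191 (74.3%, against 28.5% of all genes), and WT VP was the highest of the 3 WT lobes in 126 (49.0%, against 32.3% of all genes). These levels entered the rule that chose the genes, so these counts are descriptions. The size of the VP-only rise class depended on scaling, with 165, 86 and 100 genes under the 3 other scalings, which kept 133, 77 and 66 of the 186. The falls numbered 311, 421 and 389, with 233, 246 and 200 of the 257 kept. Of 41 VP-only rises that were members of a gene list and not among the genes with the largest ratios or widest gaps, 15, 27 and 32 came under 2-fold in VP under these scalings, while none of 31 such falls did.

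The VP-only rises with the widest gap to the other lobes had diverse roles. Pus7, a pseudouridine synthase (chr5:23740165-23783711, GRCm38), went from 6.15 to 17.2 FPKM in VP, a ratio of 2.79 (95% counting interval 2.53 to 3.08), against 8.56 and 8.83 FPKM in WT and MYC DLP and 6.78 and 7.16 FPKM in WT and MYC AP. Timm9, a chaperone of the mitochondrial intermembrane space (chr12:71123172-71136708), had 6.80 and 17.6 FPKM in VP, 12.2 and 12.4 FPKM in DLP and 8.20 and 7.77 FPKM in AP, WT value given before MYC. Uck2, the kinase of uridine and cytidine salvage (chr1:167222895-167285933), had 10.9 and 37.0 FPKM in VP, 16.4 and 19.0 FPKM in DLP and 17.1 and 14.7 FPKM in AP. In all 3 genes WT VP was the lowest and MYC VP the highest of the 6 libraries.

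The other members of this group were Pgam5, a mitochondrial phosphatase, Ifrd2, a regulator of translation, Syt7, a calcium sensor of exocytosis, Anxa13, an annexin, and Snhg20, a small nucleolar RNA host gene. Their VP log2 ratios were 1.48 for Pgam5, 1.36 for Ifrd2, 1.82 for Syt7, 1.57 for Anxa13 and 1.43 for Snhg20, and the ratios of these 5 genes in DLP and AP lay between -0.87 (Snhg20, AP) and 0.47 (Syt7, AP). Snhg20 differed from the rest in level, since MYC VP (19.1 FPKM) did not exceed WT DLP (23.96 FPKM) or WT AP (20.7 FPKM), and WT VP (6.45 FPKM) was the low library.

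**Figure D3:**
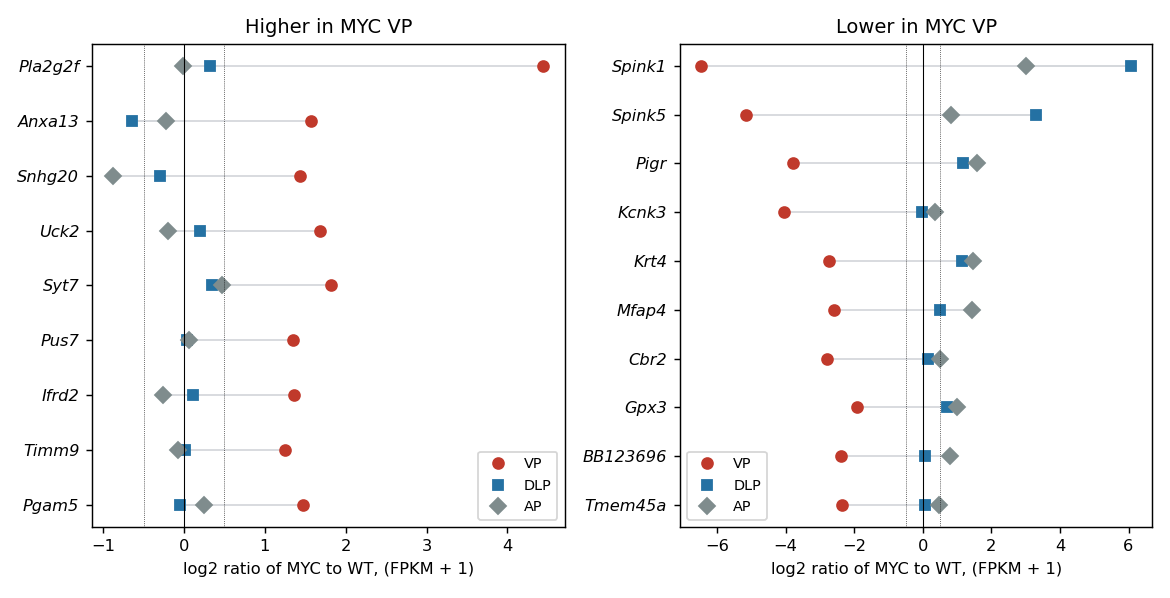
Log2 ratio of MYC to WT (FPKM + 1) in VP (circle), DLP (square) and AP (diamond) for the named genes of the VP-only class, rises on the left and falls on the right, where both VP libraries are above 0, 1 library per genotype and lobe. Dotted lines mark 0.5 either way. Spink1, Spink5, Pigr and Krt4 lie left of 0 in VP and right of 0 in both other lobes.

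Genes of the translation machinery were called higher in VP and seldom in the other lobes. Of the 79 cytosolic ribosomal protein genes, 71 were at least 2-fold higher in MYC VP (89.9%, and 63, 54 and 51 genes under the 3 other scalings), 3 in DLP and none in AP. Over all genes the shares were 6.88%, 6.46% and 2.05%. All 79 had a VP ratio above 0. The median log2 ratio was 1.35 in VP, 0.68 in DLP and 0.29 in AP, beside medians over all genes of 0.04, 0.03 and 0.13. The most abundant member, Rplp1 of the ribosomal stalk, went from 4131 to 8431 FPKM in VP. Rps26 went from 1431 to 5852 FPKM, while Rpl30 stayed at 21.68 and 21.95 FPKM (Rpl30 was chosen after its values were seen). Ribosomal protein genes have many processed pseudogenes, and how reads were divided among the copies is not given in the sources used here. Of the 71, 5 were VP-only, namely Rpl4, Rpl5, Rpl29, Rpl34 and Rps21, against 10, 6 and 15 VP-only members under the other scalings. Among all genes 1.5% were VP-only rises.

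Of 37 translation factors compared, 13 were higher in VP (35.1%, against 6.88% of all genes), 1 in DLP and none in AP, and 9 were VP-only (8, 3 and 3 under the other scalings), where 1.5% of all genes were. Eef1a1, which brings aminoacyl-tRNA to the ribosome, went from 3965 to 11063 FPKM in VP, against 4814 and 6019 FPKM in DLP and 3497 and 3653 FPKM in AP. Eef2 had 759 and 2259 FPKM in VP, a ratio of 2.98 (2.96 to 3.00), with 823 and 1119 FPKM in DLP and 611 and 711 FPKM in AP. In both genes MYC VP stood above the other 5 libraries. The remaining VP-only members were the eIF3 subunits Eif3e, Eif3f, Eif3i, Eif3k, Eif3l and Eif3m and the helicase cofactor Eif4b, with VP log2 ratios of 1.09 to 1.49. Under the other scalings 11, 6 and 6 of the list were higher, and Eef1a1, Eef2 and Eif3i were the VP-only members that stayed above 2-fold in VP under all 3. The cap-binding protein gene Eif4e had 21.7 and 20.1 FPKM in WT and MYC VP (chosen after its value was seen).

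Ribosome assembly genes gave a smaller share of calls. Of 49 ribosome biogenesis genes, 8 were called higher in VP (16.3%, against 6.88% of all genes, and 4 to 6 under the other scalings), 46 had a ratio above 0, none was called in DLP or AP, and the medians were 0.58, -0.04 and -0.19 in VP, DLP and AP. The nucleolar chaperone Npm1 went from 277 to 904 FPKM in VP. The 6 VP-only members were Polr1a, the large subunit of RNA polymerase I, Wdr12 and Pes1 of the PeBoW complex, the small nucleolar ribonucleoproteins Nop56 and Nhp2, and the endonuclease Nob1. VP-only members numbered 4, 3 and 3 under the other scalings, and of these 6 Polr1a and Wdr12 alone stayed above 2-fold in VP under all 3. Wdr12 had the largest ratio of these, going from 1.97 to 7.39 FPKM in VP, with 2.45 to 4.33 FPKM in the other 4 libraries. The nucleolar protein gene Nop58 had 84.2 and 73.0 FPKM in VP (chosen after its value was seen).

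Nucleotide, polyamine and one-carbon synthesis gave calls chiefly in VP. Of 33 genes, 14 were higher in VP (42.4%, against 6.88% of all genes, and 11, 6 and 6 under the other scalings), 2 in DLP and none in AP (6.46% and 2.05% of all genes), with medians of 0.84, 0.27 and 0.04. VP-only rises were Cad, which starts pyrimidine synthesis, Adsl and Atic of purine synthesis, Impdh2, the nucleoside diphosphate kinase Nme2, and the mitochondrial folate enzymes Shmt2 and Mthfd1l. The VP-only rises of the list numbered 5, 2 and 2 under the other scalings, and of those named Atic and Mthfd1l alone stayed above 2-fold in VP under all 3. Atic went from 7.15 to 20.6 FPKM in VP, with 7.82 to 13.5 FPKM in the other 4 libraries. Cad had 7.56 and 17.4 FPKM in VP, 6.51 and 8.07 FPKM in DLP and 3.54 and 3.47 FPKM in AP. Odc1, the first enzyme of polyamine synthesis and a textbook MYC target, had 69.5 and 88.2 FPKM in VP, below the 2-fold threshold. The single fall was Amd1, listed at 15.7 FPKM in WT VP and under 0.03 FPKM in the other 5 libraries. Its close copy Amd2 went from 156 to 74.2 FPKM in VP, so the split of reads between this pair is uncertain.

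Chaperonin and mitochondrial lists held few or no calls, depending on the list and the scaling. All 12 CCT chaperonin and mitochondrial chaperone genes had a VP ratio above 0, and 4 of them were called higher, Cct2, Cct5, Hspd1 and Trap1, with none called in DLP or AP, but under either scaling to equal sums none of the 12 reached 2-fold in VP. Of the 3 lists written after VP-only genes had been seen, which are no independent evidence, the mitochondrial import genes of the Timm and Tomm families had 3 of 23 called (Timm9, Timm8a1 and Tomm20, all VP-only). The pseudouridine synthases had 3 of 11 called (Pus7, Pus1 and Pusl1, all VP-only) and the mitochondrial ribosomal proteins 2 of 78 (Mrps30 and Mrpl38), which is 2.56% against 6.88% of all genes. Of these 8 genes, Timm9 and Pus7 alone stayed above 2-fold under all 3 other scalings. The medians of these 3 lists were 0.52, 0.91 and 0.51 in VP against 0.21, 0.13 and 0.21 in DLP. Energy metabolism gave few calls, with 1 of 45 respiratory chain genes, none of 29 citrate cycle genes, and Pdk1 up and the glucose transporter Slc2a1 down among 22 glycolysis genes.

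**Figure D4:**
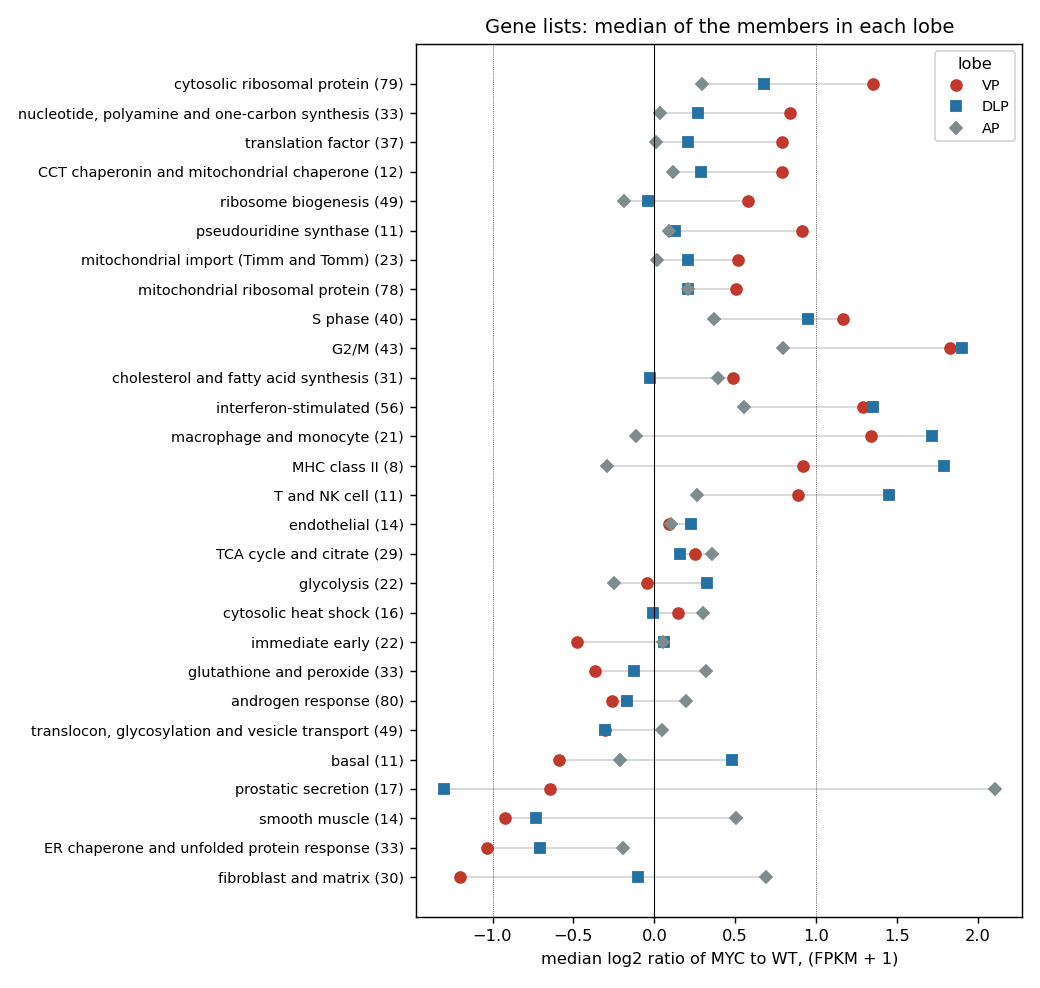
Median log2 ratio of MYC to WT (FPKM + 1) over the compared members of each gene list, in VP (circle), DLP (square) and AP (diamond), with the number of members in parentheses and dotted lines at 2-fold. Ribosomal protein, translation and nucleotide lists lie farther right in VP than in the other lobes, cell cycle and interferon lists lie about as far right in DLP, and the fibroblast and ER chaperone lists lie farthest left in VP.

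Promoters with CACGTG were counted in the same classes. A promoter was matched for 137 of the 186 VP-only rises (73.7%), of which 28 held the motif (20.4%), and for 9731 of all genes compared (78.7%), of which 1017 did (10.5%). Fewer than 80% of either set had a promoter, so a comparison of these shares is void. In the ribosome biogenesis list 43 of 49 genes had a promoter and 10 held the motif (23.3%). In the ribosomal protein list the numbers were 58 of 79 and 5 (8.62%). A match is a description of letters and says nothing of binding.

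Cell division genes were called higher in VP and in DLP. Of 43 compared G2/M genes, 34 were higher in VP, 35 in DLP and 8 in AP, beside 6.88%, 6.46% and 2.05% of all genes, with medians of 1.83, 1.90 and 0.80, and none was VP-only. Ube2c, the E2 enzyme of the anaphase-promoting complex, went from 0.361 to 17.2 FPKM and Birc5, survivin, from 0.591 to 13.0 FPKM in VP (both chosen after their values were seen). Of 40 S phase genes, 23 were higher in VP, 17 in DLP and none in AP, with medians of 1.17, 0.95 and 0.37 and with 57.5% of the list called in VP. Here the helicase subunit Mcm4 was the VP-only member, going from 3.08 to 8.34 FPKM in VP, with 7.32 and 9.94 FPKM in WT and MYC DLP and 10.9 and 9.77 FPKM in WT and MYC AP, so that WT VP was the low library. Under either scaling to equal sums Mcm4 came under 2-fold in VP. Among 29 cyclin and p53 pathway genes, 6 were higher and 3 lower in VP (20.7% and 10.3%, against 6.88% and 5.95% of all genes), with a median of -0.09. The balance depended on the scaling, with 5, 3 and 3 higher and 3, 5 and 5 lower under the others. In this list Cdk4 rose from 29.2 to 105 FPKM and Sesn1 from 6.04 to 30.7 FPKM. The cyclin gene Ccnd2 and the survival gene Bcl2l1 were VP-only falls with log2 ratios of -1.55 and -1.07.

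Cholesterol synthesis held rises that DLP lacked. Of 31 genes of cholesterol and fatty acid synthesis, 7 were higher in VP (22.6%, against 6.88% of all genes, and 3 under each other scaling), none in DLP and 4 in AP (6.46% and 2.05% of all genes), and 2 were lower in VP. Sqle and Mvd were VP-only, with VP log2 ratios of 1.04 and 1.03 that came under 1 with each other scaling. The fatty acid desaturase Fads2 was a VP-only fall, from 8.95 to 3.01 FPKM, and the regulator Srebf1 fell from 36.7 to 15.7 FPKM (Srebf1 was chosen after its values were seen).

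Many genes of protein folding in the ER were called lower. Of 33 ER chaperone and unfolded protein response genes, 17 were lower in MYC VP (51.5%, against 5.95% of all genes), 1 was higher and the other 15 were not called, with medians of -1.03 in VP, -0.71 in DLP and -0.19 in AP. The chaperones Hspa5 (BiP) and Hsp90b1 went from 1968 to 888 FPKM and from 1203 to 382.2 FPKM in VP. The VP-only falls were the stress factor Ddit3 (CHOP), with 238 and 97.3 FPKM in WT and MYC VP, and Creb3l4, an ER-bound transcription factor of the prostate, with 4.97 and 1.21 FPKM. The related factor Creb3l1 fell further, from 33.9 to 3.22 FPKM, but also had a log2 ratio of -0.95 in DLP. The oxidase Ero1a was the gene that rose, from 7.75 to 25.8 FPKM (Creb3l1 and Ero1a were chosen after their values were seen). Of 49 translocon, glycosylation and vesicle transport genes, 1 was lower (2, 4 and 4 under the other scalings) and none higher, with a median of -0.30.

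Luminal and androgen-regulated genes mostly stayed under the 2-fold threshold. Of 18 luminal identity genes, 2 were lower in VP and 1 higher (11.1% and 5.56%, against 5.95% and 6.88% of all genes). With the other scalings 2, 3 and 4 of them were lower and 1 higher each. Of 80 androgen response genes, 10 were lower in VP (12.5%, against 5.95% of all genes) and 4 higher (5.0%, against 6.88%), with a median of -0.26 and 32 of them above 0. The other scalings gave 11, 15 and 17 lower and 1 higher each. The serine protease Tmprss2 was a VP-only fall, with 23.8 and 5.38 FPKM in VP, 20.3 and 15.47 FPKM in DLP and 16.5 and 23.8 FPKM in AP. Epcam, a surface marker of epithelium, had 274 and 299.9 FPKM. Of 11 basal cell genes 1 was higher and 1 lower (9.09% each, near the 6.88% and 5.95% of all genes), but 9 were below 0. The medians were -0.59 in VP, 0.48 in DLP and -0.21 in AP. The rise was Lgals7, from 6.86 to 88.9 FPKM in VP, while Krt5 had 33.0 and 32.2 FPKM and Krt14 158 and 105 FPKM. The basal regulator Trp63 was the fall, from 3.17 to 0.814 FPKM in VP. It rose from 3.81 to 13.5 FPKM in DLP and from 5.79 to 19.2 FPKM in AP. Bulk RNA cannot tell fewer cells of a type from less RNA per cell.

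Genes that set WT VP apart from the other WT lobes were followed in MYC VP. With at least 10 FPKM in WT VP and at least 4 times the level of both WT DLP and WT AP, 53 genes qualified. In MYC VP 16 of them were lower and 3 higher, and 22 were still at least 4 times MYC DLP and MYC AP. In MYC DLP 17 were higher and 3 lower, and in MYC AP 14 were higher and none lower. Over all genes compared, 6.88% were higher and 5.95% lower in VP, 6.46% and 3.39% in DLP and 2.05% and 0.599% in AP. The medians of the 53 genes were -0.39 in VP, 0.55 in DLP and 0.50 in AP. The WT values that chose these genes are also the denominators of the ratios, so that a high WT VP value by error lowers its VP ratio and the counts are a description. Members that kept their level were the claudin Cldn3 (538 and 548 FPKM in WT and MYC VP) and the prostasin gene Prss8 (136 and 138 FPKM), and members that fell included Lrrc26 (66.8 to 13.1 FPKM), an auxiliary subunit of BK channels, and the tachykinin gene Tac1 (24.6 to 6.41 FPKM). These 4 were chosen after their values were seen.

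Several VP-only falls were in genes that went up or kept their level in the other lobes. Pigr, which carries polymeric immunoglobulin across epithelia (chr1:130826684-130852249, GRCm38), went from 349 to 24.4 FPKM in VP, but went from 17.2 to 40.4 FPKM in DLP and from 2.17 to 8.51 FPKM in AP. The keratin gene Krt4, a marker of luminal progenitors (chr15:101918535-101924735), had 53.3 and 7.09 FPKM in VP, 20.3 and 45.9 FPKM in DLP and 10.2 and 30.1 FPKM in AP. Both genes were highest in WT VP, while MYC VP was below MYC DLP. The carbonyl reductase gene Cbr2 had 1456 and 210 FPKM in VP, with 207 to 411 FPKM in the other 4 libraries. Gpx3, a secreted glutathione peroxidase, had 364 and 95.4 FPKM in VP, 151 and 249 FPKM in DLP and 157 and 313 FPKM in AP. With Gpx8, Gsta4 and Sod3 it made up the 4 VP-only falls among 33 glutathione and peroxide genes, of which 8 were lower (24.2%, against 5.95% of all genes) and 3 higher (9.09%, against 6.88%). Under the other scalings 8, 10 and 10 of the list were lower and none was higher.

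Among the lists, the fibroblast and matrix list held the most VP-only falls, while the smooth muscle and endothelial lists held none. Of the 257 VP-only falls, 247 remained without the stromal lists. Of 30 fibroblast and matrix genes, 18 were lower in VP (5.95% of all genes were) and 1 higher, 5 were lower in DLP (3.39% of all genes) and none in AP, and 10 were VP-only (2.08% of all genes), with medians of -1.20, -0.10 and 0.69. The summed level of the list went from 1679 to 623 FPKM in VP. Dcn, decorin, had 583 and 156 FPKM in VP and fell in DLP too, whereas Mfap4, a microfibril protein, had 60.5 and 9.24 FPKM in VP, 26.4 and 37.7 FPKM in DLP and 16.8 and 47.4 FPKM in AP. Collagen VI genes diverged, since Col6a1 (25.2 to 8.06 FPKM) and Col6a2 (21.7 to 6.597 FPKM) fell and Col6a3 rose from 12.6 to 69.6 FPKM (Col6a3 was chosen after its value was seen). The defining fibroblast marker Pdgfra fell from 14.8 to 3.80 FPKM, while Col1a1 had 6.18 and 7.20 FPKM. Of 14 smooth muscle genes 5 were lower (35.7%, against 5.95% of all genes, and 7, 8 and 9 under the other scalings), with Myh11 at 40.6 and 15.3 FPKM and Acta2 at 89.4 and 74.7 FPKM, and the summed level went from 627.5 to 371 FPKM. None of the 14 endothelial genes was lower. The part of stromal cells in the other falls was not tested.

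Macrophage and interferon-stimulated genes were called higher in VP and in DLP, beside 6.88% and 6.46% of all genes. Of 21 macrophage genes, 16 (76.2%) were higher in VP (16, 12 and 12 under the other scalings), 21 in DLP and none in AP, with the 23 genes of the list summing to 332 and 1283 FPKM in WT and MYC VP. Lysozyme Lyz2 went from 7.82 to 109 FPKM and complement C1qa from 10.4 to 61.4 FPKM in VP. Of 56 interferon-stimulated genes 36 (64.3%) were higher in VP, 42 in DLP and 12 in AP, where 2.05% of all genes were, and none was VP-only. Of 8 MHC class II genes 3 (37.5%) were higher in VP (2, 1 and 1 under the other scalings) and 7 in DLP, with a VP median of 0.92. Of 11 T and NK cell genes 2 (18.2%) were higher and 1 was lower in VP (Gzma, a VP-only fall), with a median of 0.89, and 10 were higher in DLP. Of 9 neutrophil and mast cell genes none was higher and 1 lower in VP (Mcpt4, at 1.04 FPKM in WT and listed at 0 in MYC), with 5 higher in DLP. The defining markers of B cells and neutrophils stayed near 0 in both VP libraries, with Cd79a at 0.556 and 0.245 FPKM and S100a8 at 0.326 and 0.263 FPKM. Other members of these lists went up. Of 3 compared B and plasma cell genes Sdc1 was called higher (36.3 to 84.3 FPKM) and 2 were below 0. Csf3r of the neutrophil and mast cell list went from 0.298 to 1.25 FPKM, a log2 ratio of 0.79, and 6 of the 9 were below 0 (Csf3r was chosen after its value was seen). The part of immune cells in the other rises was not tested.

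Chemokines gave VP-only falls among mixed changes. Of 32 chemokine and cytokine genes, 8 were lower (as were 5.95% of all genes) and 4 higher (12.5%, against 6.88%) in VP, and 5 of the falls were VP-only, as were 2.08% of all genes, Cxcl1, Cxcl13, Cxcl14, Cxcl17 and the alarmin Il33. Il33 went from 26.2 to 6.04 FPKM in VP, with 23.1 to 30.03 FPKM in the other 4 libraries, so that MYC VP was the low library. Cxcl17, a mucosal chemokine, had 53.1 and 23.7 FPKM in VP, against 5.01 and 22.8 FPKM in DLP and 0.353 and 2.16 FPKM in AP. Genes known to respond to tissue dissociation were listed too. Of 22 immediate early genes 2 were lower in VP (Socs3 and Egr3, 9.09% against 5.95% of all genes, and 3, 5 and 7 under the other scalings) and none higher, with a median of -0.48 and 20 of 22 below 0, and of 16 cytosolic heat shock genes 1 was higher (Hspb8) and none lower, against none higher and 2, 3 and 4 lower under the other scalings. The part of handling in the falls was not tested.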

How the data were processed

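The authors mapped the single-end reads of 75 bases with STAR and quantified genes with Cufflinks, and deposited 1 table of FPKM per gene and library. Per the labels' processing notes the build is mm10 (GRCm38) and reads were converted with bcl2fastq 2.18. The gene annotation is not given in the sources used here. Values have decimals, and a library sums to 374085 to 483143, which fits no table of counts, so no count model was run. Groups were taken from the sample titles.

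Ratios were log2 of FPKM + 1 in MYC over FPKM + 1 in WT, within a lobe, for genes that averaged 1 FPKM or more over all 6 libraries. The pseudocount of 1 understates changes of low genes. A 2-fold ratio counted as called, and a log2 ratio under 0.5 in that direction in DLP and AP as VP-only. Named were the 12 largest rises and 12 largest falls and the 10 VP-only genes each way with the widest gap to the nearer lobe, at a VP mean of at least 10 FPKM without small RNA genes, up to 4 most abundant members of each list, VP-only list members, cell type markers and genes the paper names for the VP. The members, and 39 gene lists from general knowledge, were chosen with earlier results of these data known, and 3 lists were added after VP-only genes were seen. VP-only list members were named after their values were seen. No p-value was computed. Some genes that the rule names are not reported here.

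Depth came from the spacing of low FPKM values of single-exon genes, which equals 1 read (40.2% to 51.7% of values lay within 0.03 of whole reads, against 6.0% by chance). Estimated reads gave the 95% Clopper-Pearson intervals of ratios, which cover counting error only. Of the symbols, 24344 matched RefSeq symbols of GRCm38.p6 and 24802 with synonyms, and gene coordinates are from that table. Tested on simulated VP libraries, the calls recovered 200 of 200 genes changed 4-fold, with 1 of 12161 unchanged genes called. The simulation held counting noise alone and no variation between animals or dissections, so it gives no false call rate for the genotypes. Alternatives were other scalings, pseudocounts, filters, thresholds and lobe limits. Software was matplotlib 3.10.9, scipy 1.17.1, numpy 2.4.6, pandas 2.3.3 and Python 3.11.15.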

Additional observations from a re-analysis of the deposited data

Results flagged for a closer look

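Some VP changes had the opposite sign in another lobe by 2-fold, with 1 library on each side, so these differences between lobes were not tested. The log2 ratio of Spink1 in VP minus that in DLP was -12.53 and minus that in AP -9.47. Spink5 differed from DLP by -8.45. Pigr differed by -4.97 from DLP and -5.37 from AP, and Krt4 by -3.89 and -4.22. Against AP alone, the differences were -7.94 for Msmb, -6.55 for Oit1, -6.0 for Defb50, -5.77 for Upk1a, -5.76 for Defb1 and -4.03 for Mfap4. The medians of 3 gene lists also had opposite signs in VP and AP with a size of at least 0.5 in both lobes, with a VP minus AP difference of -2.75 for prostatic secretion, -1.89 for fibroblast and matrix and -1.43 for smooth muscle genes. MYC AP also held seminal vesicle transcripts that WT AP lacked (530.0 against 0.112 FPKM summed), and their part in these AP values was not tested.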

How the results depend on the processing

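For the 39 genes with the largest ratios or the widest gaps, 418 values under settings other than the 4-fold threshold kept their direction and their side of 2-fold. For 72 other VP-only list members, 74 of 759 values, all rises under another scaling, came under 2-fold and none changed sign. Of the 10 named VP-only rises, 8 stayed VP-only at a pseudocount of 0.1 and 2 at a limit of 0 in the other lobes. Of 193 values of medians of the 39 lists from general knowledge, 182 moved by less than 0.5 and 11 by more. The 16 medians of these lists past 0.5 kept their sign, while 16 values of lists with medians between -0.32 and 0.25 changed sign under another scaling or minimum. The counts of higher, lower, VP-only higher and VP-only lower genes (850, 736, 186 and 257) depended on the settings, and the causes were not tested beyond what each setting does by construction. Equal sums of FPKM gave 546 higher, 86 VP-only higher and 421 VP-only lower. Equal sums without the 20 highest genes gave 521, 1184, 100 and 389. A pseudocount of 0.1 gave 1275 lower and 467 VP-only lower. A minimum mean of 10 FPKM gave 385, 386, 89 and 128, and a 4-fold threshold 148, 114, 17 and 32. A limit of 1 in the other lobes gave 491 and 492 VP-only genes, a limit of 0 gave 13 and 73, and AP alone 620 and 652. Minimum reads and the removal of stromal or immune lists were chosen after seeing the data. No paired analysis was possible because each group has 1 library. Genes under 10 FPKM, and every gene listed at 0, are the least precise.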
